A study of Mus musculus with 16 samples.

Results

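The 10 genes described here encode proteins of the smooth muscle and heart contractile apparatus, and they were chosen by name from the 27807 genes of a table of normalised read counts. The smooth muscle members were Acta2, Tagln, Cnn1, Myl9 and Tpm2, and the cardiac members were Actc1, Myl4, Myl7, Tnnt2 and Tnnc1. The study compared mouse embryonic stem (ES) cells with and without Taf4a, a subunit of the general transcription factor TFIID, as they were driven towards neurons. Poly-A RNA was sequenced in 16 libraries, with 2 in each of 8 groups. The WT groups (genotype label Taf4+/+) and the Taf4a-/- groups (genotype label Taf4-/-) were each sampled as ES cells, as embryoid bodies before retinoic acid (EB4), and as embryoid bodies 1 day (EB5) and 4 days (EB8) after retinoic acid was added. WT and Taf4a-/- groups of one stage had the same culture steps and differed in genotype and line. The lines were derived from blastocysts of crosses between heterozygous mice, and each genotype was represented by 2 independent lines, so a difference between replicates is also a difference between lines. ES cells were grown on inactivated embryonic fibroblasts, cells which themselves express several of the smooth muscle members.

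Contraction in muscle is driven by myosin heads that pull on actin filaments. Acta2 and Actc1 encode the smooth muscle and the cardiac actin. Tagln (transgelin, also called SM22) and Cnn1 (calponin) bind actin filaments in smooth muscle, and Tpm2 encodes a tropomyosin that lies along them. Myl9 encodes the regulatory light chain of smooth muscle and non-muscle myosin, Myl4 the essential light chain of the atrium and of embryonic muscle, and Myl7 the regulatory light chain of the atrium. Tnnt2 and Tnnc1 encode troponin subunits, which make the cardiac filament sensitive to calcium. Acta2, Tagln, Cnn1 and Myl9 are not confined to muscle and are also used by fibroblasts and other cells that build stress fibres. Many genes of this kind are controlled by serum response factor (SRF), which binds the CArG box in DNA.

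Acta2, which was lower in Taf4a-/- EB8, and Actc1, which was lower there too, lie at chr19:34315580-34329826 and chr2:113873018-113879284, both on the minus strand (mm9). Myl4, which was higher in Taf4a-/- EB8, lies at chr11:104411977-104457067 on the plus strand, and Myl7 lies on the same chromosome at chr11:5796640-5798785 on the minus strand. Tagln and Cnn1 share chromosome 9, at chr9:45737711-45744141 (minus strand) and chr9:21903725-21914074 (plus strand). Myl9 was annotated at chr2:156601156-156607394 (plus strand), Tpm2 at chr4:43527583-43536637 (minus strand), Tnnt2 at chr1:137737452-137748837 (plus strand) and Tnnc1 at chr14:31983021-32024915 (plus strand). All 10 are annotated as protein coding, with between 4 and 16 exon blocks. The 250 bases before the annotated start are shown for 5 members, the 3 that differed between the genotypes at EB8 and the 2 others that held an exact match to the CArG box. They are RefSeq sequences of build GRCm38.p6, another build than that of the counts. They run 5′ to 3′ on the strand of the gene, with exact matches to the CArG box in capitals. The windows are chr19:34255374-34255623 for Acta2, chr2:114052876-114053125 for Actc1, chr11:104550413-104550662 for Myl4, chr11:5898783-5899032 for Myl7 and chr2:156775214-156775463 for Myl9.
Acta2: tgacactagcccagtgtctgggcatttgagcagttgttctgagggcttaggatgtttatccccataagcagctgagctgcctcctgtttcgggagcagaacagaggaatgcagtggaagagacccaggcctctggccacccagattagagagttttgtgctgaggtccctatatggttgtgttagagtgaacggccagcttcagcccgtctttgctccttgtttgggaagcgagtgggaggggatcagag
Actc1: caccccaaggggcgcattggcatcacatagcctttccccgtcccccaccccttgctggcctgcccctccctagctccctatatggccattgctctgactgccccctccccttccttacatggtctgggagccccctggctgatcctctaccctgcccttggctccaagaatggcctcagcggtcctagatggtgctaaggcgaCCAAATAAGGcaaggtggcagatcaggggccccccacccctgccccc
Myl4: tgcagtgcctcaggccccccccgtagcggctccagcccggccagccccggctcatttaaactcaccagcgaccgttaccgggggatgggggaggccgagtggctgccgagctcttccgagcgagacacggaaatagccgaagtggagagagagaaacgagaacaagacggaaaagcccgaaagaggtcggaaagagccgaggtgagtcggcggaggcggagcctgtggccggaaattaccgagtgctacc
Myl7: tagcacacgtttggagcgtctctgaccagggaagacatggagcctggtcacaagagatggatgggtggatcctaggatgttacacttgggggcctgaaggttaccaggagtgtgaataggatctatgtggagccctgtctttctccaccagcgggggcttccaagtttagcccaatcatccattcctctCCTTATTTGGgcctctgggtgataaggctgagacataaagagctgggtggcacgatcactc
Myl9: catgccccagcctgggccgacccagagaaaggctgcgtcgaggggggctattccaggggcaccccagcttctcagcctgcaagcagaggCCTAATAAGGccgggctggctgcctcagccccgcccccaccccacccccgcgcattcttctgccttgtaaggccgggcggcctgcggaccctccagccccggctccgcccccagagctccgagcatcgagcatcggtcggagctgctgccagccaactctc

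The CArG box was searched as CCWWWWWWGG (W for A or T), with no mismatch allowed. The search ran on both strands from 250 bases before to 50 bases after the start. As the pattern is palindromic, each match was found on both strands. RefSeq promoters were found for 9 of the 10 members, all but Tagln. The box stood 47 to 38 bases before the start of Actc1, 61 to 52 bases before that of Myl7 and 161 to 152 bases before that of Myl9. Thus 3 of the 9 members held an exact match, beside 1.81% of 27025 genes with a promoter in the same table. The TATA motif, searched as TATAAA on both strands with no overlap with a CArG box, was found in 1 member (Actc1, 34 to 39 bases after the start) and in 15.7% of genes. Exact matches stood at Actc1 and Myl7, whose differences at EB8 had opposite signs, and none stood in the windows of Acta2 and Myl4. Near matches, such as ccctatatgg in the sequences of Acta2 and Actc1 above, were not counted. The windows without an exact match are thus not shown to lack a CArG box.

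Recovered reads per library ran from 22442118 to 40711826. The ES libraries (32631020 to 40711826) were all deeper than the EB libraries (22442118 to 27685306). The size factors scale for depth, so this bears mainly on steps from ES to EB4 of genes with few reads. The part of depth in these steps was not tested. Taf4a itself was not lower in the Taf4a-/- libraries (log2 difference 0.41 at ES, 0.18 at EB4, 0.28 at EB5 and 0.29 at EB8, with limma adjusted p between 0.194 and 0.525), and since the null allele lacks only some exons, its gene-level count does not check the labels. The 6 pluripotency markers summed to between 80817 and 105330 normalised counts in the ES libraries. They summed to 1283 to 1520 in WT EB8 but to 18934 to 20801 in Taf4a-/- EB8, where limma called 5 of the 6 higher than in WT. The member calls at EB8 thus compare cultures that also differed in these markers. At EB8 the summed neural precursor markers stood at 20464 to 24964 in WT but at 3995 to 4278 in Taf4a-/-, so the Taf4a-/- EB8 libraries did not show the levels of neural genes that their cell type label names. The median level of chromosome X genes, relative to the mean of each gene over the 16 libraries, was 0.35 to 0.54 log2 in Taf4a-/- replicate 2 at every stage and 0.47 in WT ES replicate 2, but between -0.25 and -0.16 in the rest, WT replicate 2 at EB4, EB5 and EB8 included. Chromosome 8 genes, none of them members, stood at 0.40 to 0.41 in each EB library of WT replicate 1, but at -0.15 in the ES library with that number, and between -0.16 and 0.03 in the rest. By these levels, neither WT ES library matched the EB libraries of its replicate number. Results without a WT ES library are given below for Acta2, Myl4 and Tpm2.

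Of the 10 members, 8 had a mean normalised count of at least 10 over the 16 libraries and were tested among 16124 genes. A normalised count is the number of reads counted on a gene divided by the size factor of its library. Tagln was the most abundant member (mean 2323) and Tpm2 the next (1217), followed by Myl9 (500), Cnn1 (447), Acta2 (279), Myl7 (62.9), Actc1 (60.5) and Myl4 (38.9). The values of the 5 smooth muscle members were thus higher than those of the 5 cardiac members, and the summed cardiac members made up between 55.1 and 348.4 normalised counts a library, beside 1238 to 16652 for the smooth muscle members. The spread between the 2 lines of a group was wide, reaching 16.6 times for Actc1 (34.9 against 2.1) and 11.0 times for Tagln in Taf4a-/- ES.

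**Figure D1:**
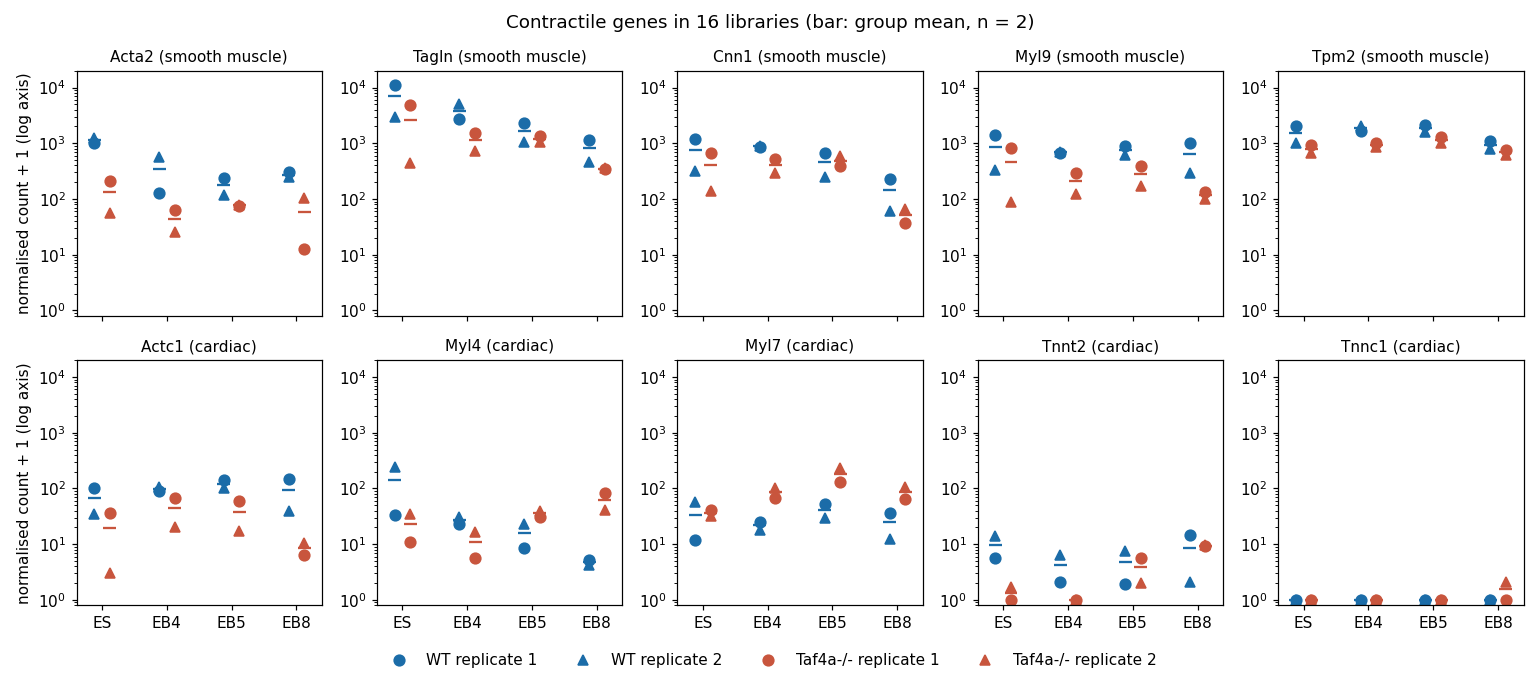
Normalised count + 1 of each of the 10 members (log axis) in the 16 libraries at ES, EB4, EB5 and EB8, with WT in blue, Taf4a-/- in red, replicate 1 as circles, replicate 2 as triangles and the mean of each group (n = 2) as a bar. At EB8 the Taf4a-/- libraries lie below WT for Acta2 and Actc1 and above WT for Myl4 and Myl7, while Tnnt2 and Tnnc1 stay near the bottom of the axis in all libraries.

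Acta2 was the smooth muscle member with the largest difference between the genotypes at ES, EB4 and EB8. Its normalised count was 1022.1 and 1230.2 in the WT ES libraries, 128.2 and 572.6 at WT EB4, 235.2 and 117.5 at WT EB5, and 298.2 and 245.6 at WT EB8. In Taf4a-/- it was 212.5 and 55.0 at ES, 61.9 and 24.2 at EB4, 74.9 and 77.6 at EB5, and 11.6 and 103.3 at EB8. Every Taf4a-/- library was below both WT libraries of its stage, and the 2 Taf4a-/- EB8 libraries differed 8.91 times from each other. The log2 difference (Taf4a-/- minus WT, on the log2(normalised count + 1) scale used for every difference here) was -2.91 ± 0.95 (SE) at EB8 and passed the test (limma adjusted p = 0.0434). It was -3.36 ± 0.95 at ES, -2.77 ± 0.95 at EB4 and -1.12 ± 0.95 at EB5, where limma gave adjusted p of 0.181, 0.103 and 0.542. The EB8 call was lost on leaving out either WT EB8 library (limma adjusted p = 0.151 and 0.125) or Taf4a-/- EB8 replicate 1, the library with 11 reads, without which the difference was -1.38 (adjusted p = 0.352). The call was also lost without either WT ES, either WT EB5 or either Taf4a-/- EB5 library, which enter the EB8 comparison only through the shared spread. With edgeR on the recovered reads the EB8 difference was -2.23 with an adjusted p of 0.106. In bulk RNA of this kind, fewer cells that express a gene and less of its RNA in each cell cannot be told apart.

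Tagln was by far the most abundant member in ES cells. Its normalised count was 11039.4 and 2913.3 at WT ES, 2698.3 and 5006.6 at WT EB4, 2296.0 and 1060.8 at WT EB5, and 1165.6 and 454.2 at WT EB8. In Taf4a-/- the values were 4783.3 and 434.5 at ES, 1521.1 and 721.0 at EB4, 1327.3 and 1044.3 at EB5, and 345.0 and 354.7 at EB8. The groups did not overlap at EB4 and EB8, where Taf4a-/- was lower, and overlapped at ES and EB5. The log2 differences ran from -1.97 at ES through -1.81 at EB4 and -0.41 at EB5 to -1.05 at EB8, each with an SE of 0.93, and none passed the test (limma adjusted p 0.273 to 0.843). Exons of Tagln overlap those of Pcsk7 on the opposite strand, and the library kit does not mark strand, so reads of the overlap cannot be given to one gene.

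Cnn1 had its lowest group means at EB8 in both genotypes. WT values were 1185.9 and 313.3 at ES, 871.3 and 896.4 at EB4, 659.6 and 243.8 at EB5, and 226.8 and 59.3 at EB8, and Taf4a-/- values were 669.9 and 140.8, 518.7 and 287.1, 382.1 and 589.6, and 35.9 and 66.0 at the same stages. The genotypes overlapped at ES, EB5 and EB8, and the log2 difference lay between -1.24 and 0.24 (limma adjusted p 0.315 to 0.903). Between EB5 and EB8 the log2 change was -3.26 ± 0.84 in Taf4a-/- (limma adjusted p = 0.103) and -1.78 ± 0.84 in WT (adjusted p = 0.214). The 2 steps did not differ by a test of the difference itself (-1.48 ± 1.18, limma adjusted p = 0.806).

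Myl9 had the steadiest WT group means of the tested members, between 652.8 and 856.4. Its single libraries were less steady, as the 2 WT libraries differed 4.20 times at ES and 3.47 times at EB8. WT values were 1383.5 and 329.3 at ES, 680.6 and 685.2 at EB4, 888.3 and 613.9 at EB5, and 1013.4 and 292.2 at EB8. In Taf4a-/- they were 819.4 and 87.9 at ES, 295.6 and 121.2 at EB4, 384.0 and 173.6 at EB5, and 130.8 and 99.1 at EB8. From EB4 on, all 6 Taf4a-/- libraries were below both WT libraries of their stage. The log2 difference was -2.25 ± 0.95 at EB8 (limma adjusted p = 0.107), -1.84 at EB4 and -1.51 at EB5, and none passed the test.

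Tpm2 had the smallest spread between lines. WT values were 2020.6 and 1026.9 at ES, 1647.2 and 2035.2 at EB4, 2146.4 and 1606.6 at EB5, and 1080.6 and 783.5 at EB8. Taf4a-/- values were 934.7 and 656.1 at ES, 989.5 and 862.7 at EB4, 1278.0 and 1028.8 at EB5, and 754.4 and 614.6 at EB8. Every Taf4a-/- library was below both WT libraries of its stage. The log2 difference was -0.88 ± 0.31 at ES, -0.99 ± 0.31 at EB4, -0.70 ± 0.31 at EB5 and -0.43 ± 0.31 at EB8, and the nearest to the threshold was EB4 (limma adjusted p = 0.0793).

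Actc1, the cardiac actin, was low throughout, with its lowest group mean in Taf4a-/- EB8 and its lowest library (2.1) in Taf4a-/- ES. Its normalised count was 101.0 and 34.3 at WT ES, 87.7 and 107.2 at WT EB4, 139.3 and 101.0 at WT EB5, and 146.0 and 39.2 at WT EB8. In Taf4a-/- it was 34.9 and 2.1 at ES, 66.6 and 19.1 at EB4, 57.8 and 16.5 at EB5, and 5.3 and 9.6 at EB8, the last from 5 and 9 reads. The groups overlapped at ES and were separate, with Taf4a-/- lower, at EB4, EB5 and EB8. The log2 difference at EB8 was -3.24 ± 1.07 and passed the test (limma adjusted p = 0.0462), while those at ES (-2.50), EB4 (-1.41) and EB5 (-1.90) did not (adjusted p 0.343 to 0.470). The EB8 call was lost on leaving out any 1 of the 4 EB8 libraries, with differences from -4.17 to -2.30. It was also lost without either WT EB4 or either WT EB5 library, which enter this comparison only through the shared spread. Actc1 and Acta2 resemble each other and the other actin genes in their coding sequence, and how reads that match several actin genes were counted is not given in the sources used here, so the values of both are uncertain to that extent.

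Myl4 changed its order between the genotypes along the course. It was 31.9 and 246.4 at WT ES, 21.9 and 30.0 at WT EB4, 7.5 and 22.0 at WT EB5, and 4.2 and 3.2 (4 and 3 reads) at WT EB8. In Taf4a-/- it was 10.0 and 34.3 at ES, 4.7 and 15.3 at EB4, 30.3 and 38.8 at EB5, and 81.2 and 40.5 (77 and 38 reads) at EB8. The Taf4a-/- libraries were thus below both WT libraries at EB4 and above both at EB5 and EB8. The log2 difference was 3.65 ± 0.92 at EB8 and passed the test (limma adjusted p = 0.0140), with -1.47 at EB4 (adjusted p = 0.375) and 1.34 at EB5 (adjusted p = 0.448). At ES it was -2.20 (adjusted p = 0.390), and -0.74 without WT ES replicate 2, the ES library of WT with high chromosome X levels. The EB8 call was lost without WT EB8 replicate 1 (3.81, limma adjusted p = 0.0505), without WT EB8 replicate 2 (3.49, adjusted p = 0.0759) or without Taf4a-/- EB8 replicate 1 (3.15, adjusted p = 0.0955), and was kept without Taf4a-/- EB8 replicate 2. Exons of Myl4 overlap those of Gm11665 on the opposite strand, so here too reads of the overlap cannot be given to one gene. Each Myl4 library at EB8 in Taf4a-/- was above the highest EB library of WT, while the WT ES library with 246.4 was the highest of all 16.

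Myl7 was higher in Taf4a-/- at each EB stage, without passing the test at any. WT values were 10.9 and 55.0 at ES, 24.1 and 17.2 at EB4, 52.7 and 28.6 at EB5, and 35.7 and 11.6 at EB8. Taf4a-/- values were 39.8 and 30.7 at ES, 66.6 and 102.1 at EB4, 127.0 and 233.7 at EB5, and 64.4 and 106.5 at EB8. The groups overlapped at ES only. The log2 difference was 1.97 ± 0.72 at EB4, 2.12 ± 0.72 at EB5 and 1.96 ± 0.72 at EB8, with limma adjusted p of 0.126, 0.117 and 0.0689. Myl4 and Myl7 both lie on chromosome 11, whose genes had a median level, on the same relative scale as above, of 0.18 to 0.28 log2 in Taf4a-/- replicate 1 and of -0.13 to 0.03 in all others. With each library centred on the median of each chromosome, the EB8 differences were 3.45 for Myl4 (limma adjusted p = 0.0187) and 1.76 for Myl7 (adjusted p = 0.106). Without Taf4a-/- replicate 1 at all stages, the EB8 difference of Myl4 was 3.15 (adjusted p = 0.140).

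Tnnt2 and Tnnc1 were too low to test. Tnnt2 had at most 16 reads in a library and was above 3 reads in 8 of 16, with normalised counts of 4.6 and 12.8 at WT ES, 13.7 and 1.1 at WT EB8, 0 and 0.7 at Taf4a-/- ES, 0 in both Taf4a-/- EB4 libraries, and 8.4 and 8.5 at Taf4a-/- EB8. Tnnc1 had 1 read in all 16 libraries together, in Taf4a-/- EB8 replicate 2. A count of 0 allows a normalised count of up to 2.14 to 3.83, depending on the library, by counting error alone. The counted Tnnc1 row shares its exons, on the same strand, with a second gene model of the same name in GENCODE M1, and reads in shared exons cannot be given to one gene, so its value near 0 says little about the gene.

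The calls among the members were all at EB8. There, 3 of the 8 tested members passed the test (1 higher and 2 lower in Taf4a-/-), beside 22.9% of all 16124 tested genes (10.4% higher and 12.5% lower). At EB4 and EB5 no member passed, beside 6.12% and 4.34% of genes, and at ES none did, beside 0% of genes. At an unadjusted p under 0.05, limma had 4 of the 8 members at ES (1846 of the 16124 genes), 3 at EB4 (3668 genes), 2 at EB5 (3342 genes) and 5 at EB8 (5803 genes). On the recovered reads, edgeR called none of the 8 at ES, EB4 or EB5, and DESeq2 called 1 at ES (Acta2, with 469 genes in all), 2 at EB4 (Acta2 and Tpm2, with 2077 genes) and 1 at EB5 (Myl7, with 1719 genes). The split of all genes at EB8 depended on scaling: limma called 1677 higher and 2020 lower, and with libraries rescaled to their upper quartile it called 2283 higher and 1614 lower. That rescaling took the median log2 difference of all genes from -0.03 to 0.11 and turned no member's sign. Libraries of the genotypes did not overlap, with Taf4a-/- lower, for 2 of the 8 tested members at ES, 7 at EB4, 4 at EB5 and 5 at EB8, beside 20.7%, 26.6%, 28.1% and 33.5% of all tested genes. They did not overlap, with Taf4a-/- higher, for 0, 1, 2 and 2 members, beside 19%, 25.3%, 26.7% and 30.4% of genes. The median log2 difference of the 8 tested members was -1.65 at ES, -1.44 at EB4, -0.55 at EB5 and -1.15 at EB8, where that of all genes was within 0.03 of 0. Leaving out 1 library moved the ES differences widely, from -3.70 to -0.25 for Tagln, -4.25 to -0.74 for Actc1 and -1.37 to -0.39 for Tpm2. These counts describe the members that passed the filter and are not a test of the group.

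**Figure D2:**
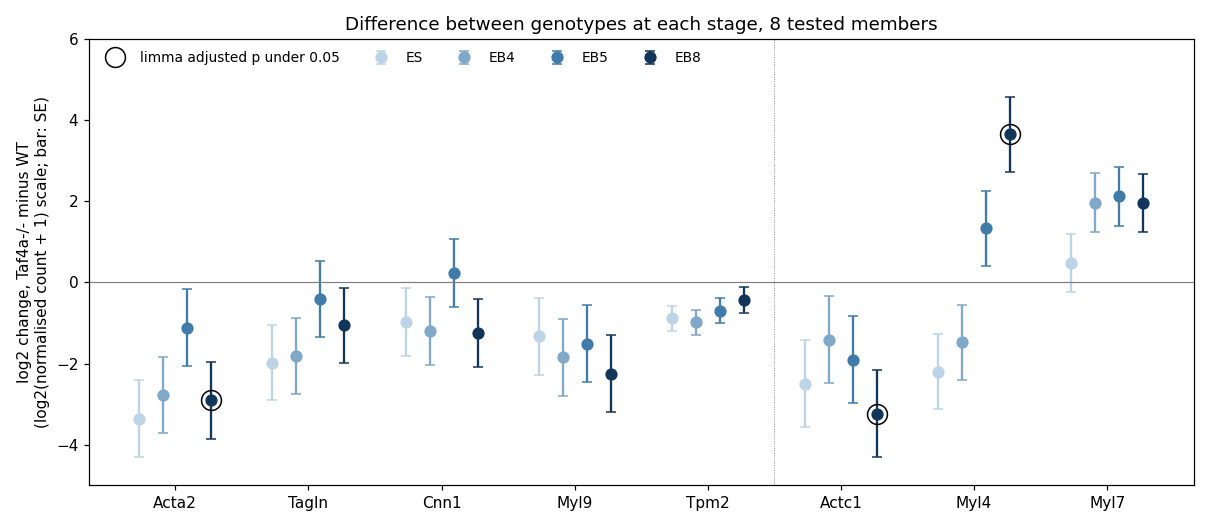
Log2 difference between Taf4a-/- and WT (log2(normalised count + 1) scale) of the 8 tested members at ES, EB4, EB5 and EB8, light to dark, with the SE of the limma fit as bars and rings round the 3 values with an adjusted p under 0.05. The smooth muscle members and Actc1 lie below 0 at every stage except Cnn1 at EB5 (0.24), whereas Myl7 lies above 0 at every stage and Myl4 passes from -2.20 at ES to 3.65 at EB8.

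From stage to stage no member passed the limma test in either genotype. At an unadjusted p under 0.05 there was 1 member from EB5 to EB8 in WT, beside 3986 of the 16124 genes, and 2 in Taf4a-/-, beside 2065 genes, and none in the other steps. EdgeR called none in any step. DESeq2 called Myl4 from ES to EB4 in WT (with 3911 genes in all), and Tpm2 in WT (2511 genes) and Cnn1 in Taf4a-/- (661 genes) from EB5 to EB8. The step of Myl4 rested on WT ES replicate 2: in limma it was -1.76 with both ES libraries, -0.30 without that one and -3.21 without the other (adjusted p = 0.0398). The shares of all genes that passed were 16.5% (WT) and 3.5% (Taf4a-/-) from ES to EB4, 3.73% and 2.51% from EB4 to EB5, and 10.4% and 0.738% from EB5 to EB8. The members nearest to the threshold were Tpm2, with -1.01 ± 0.31 from EB5 to EB8 in WT (limma adjusted p = 0.0577), Cnn1 over the same step in Taf4a-/-, and Acta2, with -2.04 ± 0.95 from ES to EB4 in WT (adjusted p = 0.155). Tpm2 passed that step in 5 of the other settings, and Cnn1 passed its step with a replicate block within genotype (-3.26, limma adjusted p = 0.0371). A test of the difference between the genotypes in each step called no member either (limma, edgeR and DESeq2, with none at an unadjusted p under 0.05 in limma), where limma called 0% of all genes for the steps to EB4 and to EB5 and 0.781% for the step to EB8. For Myl4 the difference in the step from EB4 to EB5 was 2.81 ± 1.31 (limma adjusted p = 0.9999) and in the step from EB5 to EB8 2.31 ± 1.31 (adjusted p = 0.662).

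Per kilobase of exon, which allows levels of different genes to be compared, Tagln led in all groups except the EB8 groups. At WT ES it stood at 4399 ± 3623 normalised counts per kb (SD, n = 2), ahead of Myl9 (737 ± 641), Acta2 (632 ± 82.6) and Tpm2 (524 ± 242), and these last 3 did not differ beyond their spread. At WT EB8, Myl9 (562 ± 439) and Tagln (511 ± 317) were level, followed by Tpm2 (320 ± 72.2) and Acta2 (153 ± 20.9), and Myl4 was near the bottom (0.795 ± 0.156). At Taf4a-/- EB8, Tpm2 (235 ± 34.0) and Tagln (221 ± 4.33) led within their spread, and Myl7 came next (145 ± 50.5), above Myl9 (98.9 ± 19.3) but within the spread of both. Actc1, sixth at WT EB8 (57.2 ± 46.7), was then below Myl4 (13.1 ± 6.22) and Tnnt2 (7.67 ± 0.0520) at 4.59 ± 1.88.

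Because the ES cells grew on fibroblasts, 16 fibroblast markers were read beside the members. At ES, their summed normalised count was 1858 and 3328 in WT and 516.4 and 1025 in Taf4a-/-, so the fibroblast markers were lower in Taf4a-/- ES as the smooth muscle members were (16652 and 5813 in WT, 7420 and 1374 in Taf4a-/-). Of the 14 fibroblast markers tested, none passed at ES with limma or edgeR and 4 did with DESeq2, with 6 at an unadjusted p under 0.05 and a median log2 difference of -1.35. At 0 stood between 0 and 2 of the 16 in an ES library. Within a genotype the 2 sums did not go together: the ES library with more fibroblast marker reads was the one with fewer reads of smooth muscle members, in WT and in Taf4a-/- alike. The fibroblast sums were higher at EB8 than at ES, at 4437 and 5135 in WT and 2565 and 5966 in Taf4a-/-, while the sums of the smooth muscle members were lower, at 3785 and 1835 and at 1278 and 1238. The fibroblast sums were lower in Taf4a-/- without overlap at EB4 (1971 and 2167 in WT, 865.7 and 1004 in Taf4a-/-) and EB5 (3849 and 3054, 1992 and 2211), with median log2 differences of -0.84 and -0.59, at stages where the sums of the smooth muscle members were lower too. At EB8 the fibroblast sums of the genotypes overlapped, none of the 14 tested markers passed with limma or edgeR (1 with DESeq2 and 1 at an unadjusted p under 0.05), and their median log2 difference was -0.21. The part of feeder or other fibroblasts in the member levels was not tested.

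**Figure D3:**
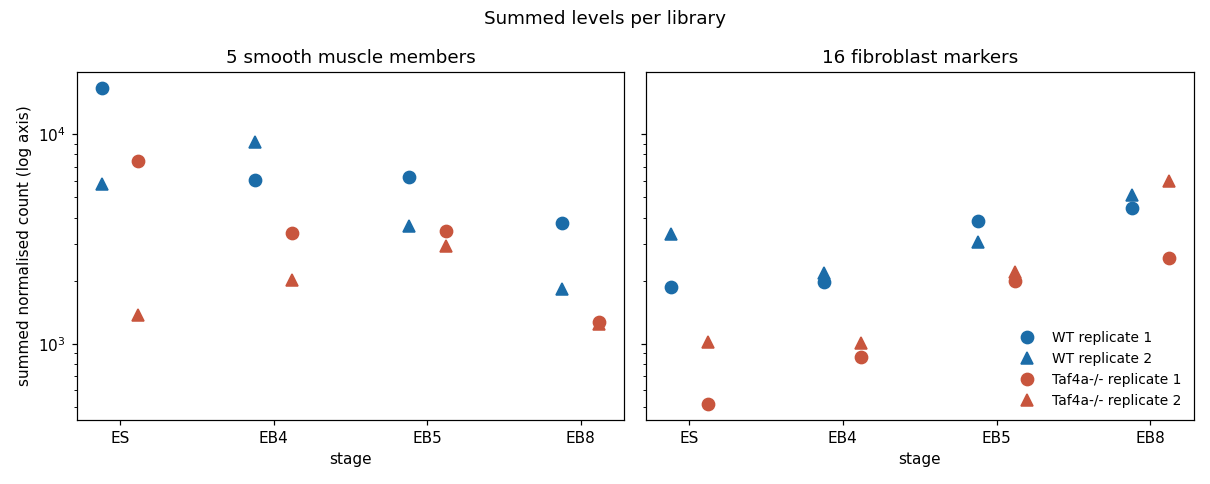
Summed normalised count (log axis) of the 5 smooth muscle members (left) and of 16 fibroblast markers (right) in each library, with WT in blue, Taf4a-/- in red, replicate 1 as circles and replicate 2 as triangles. From ES to EB8 the member sums go from 5813 and 16652 to 1835 and 3785 in WT, while the marker sums go from 1858 and 3328 to 4437 and 5135.

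Other genes of the same apparatus were read from lists of 10 smooth muscle, 20 cardiac and 12 skeletal muscle genes. Of the 9 smooth muscle genes tested at EB8, limma called 2 higher in Taf4a-/- and none lower, with a median log2 difference of 0.15. EdgeR called 1 gene of this list there and DESeq2 3. The 2 limma calls were Csrp1, a LIM protein of actin bundles (1.26 ± 0.30, limma adjusted p = 0.0112), and Synpo2, an actin-binding protein of the Z-disc (1.39 ± 0.45, adjusted p = 0.0415). The smooth muscle list at EB8 did not show the lower values seen for Acta2.

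Of the 15 cardiac genes tested, 2 were higher and 1 was lower at EB8, with a median of 0.05. Nppb, the B-type natriuretic peptide, was listed at 2.1 and 0 in WT and at 27.4 and 20.2 in Taf4a-/- (3.80 ± 0.95, limma adjusted p = 0.0132). Ttn, the giant spring protein of the sarcomere, was higher in Taf4a-/- by 1.97 ± 0.61 (adjusted p = 0.0349), and Myh7, the slow and cardiac beta myosin heavy chain, was lower, with a difference of -2.88 ± 0.85 (adjusted p = 0.0290). At EB4, limma called 1 smooth muscle gene (Tpm1) and 1 cardiac gene (Myl3) lower, both named for being its only calls, where edgeR called 0 and 1 genes of these lists and DESeq2 3 and 4, and at ES and EB5 no gene of either list passed with limma or edgeR. At ES, all 9 smooth muscle genes tested had a negative difference (median -1.23, from -2.54 to -0.19), 7 of them at an unadjusted p under 0.05 and 2 called by DESeq2. The summed level of that list was 18321 to 31797 in WT ES and 6421 to 14370 in Taf4a-/- ES, and at EB8 the genotypes overlapped (12946 to 22334 and 15919 to 18888).

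Of the 5 skeletal muscle genes tested, 2 were higher at EB8. Mylpf, the regulatory light chain of fast skeletal muscle and so a relative of Myl7 and Myl9, was 89.3 and 119.6 in WT and 1391.6 and 1420.0 in Taf4a-/- (3.75 ± 0.40, limma adjusted p = 0.000111), and it passed at EB4 (4.25) and EB5 (3.53) as well. Its level at ES was 1815.8 and 1859.3 in WT and 3678.4 and 3522.8 in Taf4a-/-, with no call. Myh8, the perinatal myosin heavy chain, was 3.2 and 0 in WT and 14.8 and 16.0 in Taf4a-/- (3.01 ± 0.69, adjusted p = 0.00853). Mylpf thus had the same order of genotypes as Myl4 and Myl7 at EB8, and at far more reads, but not the same course. From ES to EB4 in WT it changed by -4.33 ± 0.40 (limma adjusted p = 0.000365). Neither Myl4 (-1.76) nor Myl7 (-0.28) passed that step with limma.

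Among 13 cytoplasmic paralogues of the members, all tested, 1 was higher and 3 were lower in Taf4a-/- EB8. Tagln3, the neuronal relative of Tagln, was 1849.3 and 1599.8 in WT and 38.0 and 24.5 in Taf4a-/- (-5.77 ± 0.73, limma adjusted p = 0.000292). Tpm4, a non-muscle tropomyosin, was lower by -1.24 ± 0.33 (adjusted p = 0.0190) and Cnn3, a calponin of non-muscle cells, by -0.84 ± 0.14 (adjusted p = 0.00132). Tpm4 was also lower at EB4 (-1.34) and EB5 (-1.30), in the direction of Tpm2. It lies on chromosome 8, and with each library centred on the median of each chromosome its differences were -1.11 at EB4 (limma adjusted p = 0.0522), -1.11 at EB5 (adjusted p = 0.0615) and -1.07 at EB8 (adjusted p = 0.0251), so that the calls at EB4 and EB5 were lost. Between the genotypes, SRF and its cofactors gave no limma or edgeR call at any stage among 6 tested genes (1 by DESeq2, at EB5, and at most 1 a stage at an unadjusted p under 0.05). Along the WT course, limma and edgeR each called 2 of the 6 from ES to EB4 and 1 from EB5 to EB8. Srf itself was 1703.3 and 1882.5 in WT EB8 and 1179.6 and 836.2 in Taf4a-/- EB8 (-0.85 ± 0.34, limma adjusted p = 0.0913). Its difference was also negative at ES (-0.25, adjusted p = 0.841), EB4 (-0.76, adjusted p = 0.207) and EB5 (-1.12 ± 0.34, adjusted p = 0.0847). Of 11 tested heart field transcription factors none passed at EB8 with limma or edgeR (1 with DESeq2 and 2 at an unadjusted p under 0.05). Mef2d, the most abundant of them, passed at EB4 alone among the 4 stages (-1.38 ± 0.18, adjusted p = 0.00465). Among 6 endothelial markers, 2 were higher at EB8 (Tek, 2.46, and Pecam1, 3.03) and none was lower, with differences from -2.20 to 3.03 and a median of 0.52. At EB4, 1 was higher (Pecam1) and 1 lower (Cdh5, named for being a call), with a median of -1.11. From ES to EB4 in WT, limma called Tek (-2.35, adjusted p = 0.00104) and Pecam1 (-2.47, adjusted p = 0.0278) lower and Cdh5 higher. Tek and Pecam1 were thus higher in WT ES cells than at WT EB4. The summed level of the 6 markers differed widely between the WT ES libraries, at 1711 in replicate 1 and 7002 in replicate 2. No result without a WT ES library is given for this step, and the presence of endothelial cells was not tested.

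Across the 16 libraries the members fell into a group that varied together and a pair that did not. On the log2 scale, Pearson's r was 0.89 for Myl9 and Actc1, 0.88 for Tagln and Cnn1, and 0.81 for Tagln and Myl9, for Myl9 and Tpm2, and for Tpm2 and Actc1. Acta2 was most like Tagln (0.71). Myl7 had negative r with each of these 6 genes, from -0.53 with Acta2 and Myl9 to -0.11 with Cnn1, and Myl4 lay between -0.43 with Actc1 and 0.05 with Acta2. Myl4 and Myl7 had an r of 0.25 with each other. The libraries share lines, stages and genotypes and are not 16 independent points, so these values are descriptions. Outside the members, the gene most like Myl9 was Cnn2, a calponin of non-muscle cells (r = 0.93), and skeletal actin Acta1 was among the 3 genes most like Tagln (0.89) and Tpm2 (0.89). Acta2 was most like Ppib (0.86), Actc1 like Spon1 (0.88), Cnn1 like Ccdc41 (0.90), Tagln like Gm11627 (0.89), Myl4 like Ccdc152 (0.83) and Myl7 like Acy3 (0.89).

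**Figure D4:**
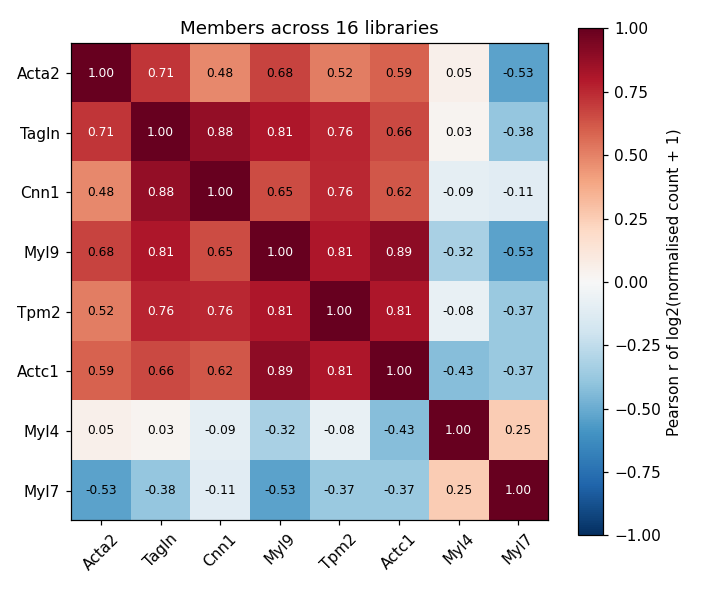
Pearson's r of log2(normalised count + 1) between the 8 tested members over 16 libraries, with red for positive and blue for negative values and the value in each cell. The upper left block of Acta2, Tagln, Cnn1, Myl9, Tpm2 and Actc1 is red throughout (0.48 to 0.89), while the rows of Myl4 and Myl7 are pale or blue.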

How the data were processed

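The deposited table held, per the file headers, 1 column of normalised signal for each library. The authors aligned single-end reads to mm9 with TopHat2 2.0.10, counted them per gene with HTSeq 0.5.4p3 and divided the counts by DESeq2 1.0.19 size factors (versions from the submitters' processing notes, which also list CASAVA 1.7 and 1.8). The counting options and the annotation are not given in the sources used here. Because the signal was a whole multiple of one step in each library, reads were recovered (100% of values whole within 0.01).

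The main test was limma 3.58.1 (R 4.3.3) on log2(normalised count + 1), with 8 groups in one fit (8 residual and 4.27 prior degrees of freedom), an intensity trend, genes with a mean of at least 10, and Benjamini-Hochberg adjustment over 16124 genes at 0.05. P-values rest on the spread between 2 lines a group, pooled over the 8 groups as if these were independent. The lines of a genotype recur across stages, however. Differences between replicates correlated from 0.523 to 0.605 among the WT EB stages and from 0.233 to 0.422 within Taf4a-/-. The 8 residual degrees of freedom are thus not 8 independent pairs of lines, and each genotype difference rests on 2 lines against 2. The floor given for a count of 0 covers counting error only. Each ± is the SE of the limma fit or, where marked, the SD between the 2 libraries of a group. Alternatives were pseudocounts of 0.1 and 5, no filter and a mean of at least 50, upper-quartile and quantile scaling, chromosome centring, replicate blocks, edgeR 4.0.16 and DESeq2 1.42.0 on recovered reads, and each library left out. The fit was also run on simulated counts without differences between lines. That run does not bear on the spread between lines seen here. Of 27807 genes, 27603 matched GENCODE M1 (the build of mm9). Promoters came from RefSeq. All 10 members are named whatever their values, with at most 3 genes a list (the largest differences among those called at EB8, or else the most abundant) and the 3 genes most like each member. Members and lists were chosen with earlier results of these data known.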

Additional observations from a re-analysis of the deposited data

Results flagged for a closer look

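The differences of Myl4 between EB5 and EB8 had opposite signs in the 2 genotypes, and neither step passed the test (WT -1.59 ± 0.92, limma adjusted p = 0.325, and Taf4a-/- 0.73 ± 0.92, adjusted p = 0.831). Both WT libraries at EB8 (4.2 and 3.2) were below both at EB5 (7.5 and 22.0), and both Taf4a-/- libraries at EB8 (81.2 and 40.5) were above both at EB5 (30.3 and 38.8). The difference between the steps was 2.31 ± 1.31 on the log2 scale, and its test did not pass (limma adjusted p = 0.662, unadjusted p = 0.101). The WT libraries at EB8 had 4 and 3 reads of Myl4.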

How the results depend on the processing

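The count of tested members that passed at EB8 (3) was 5 with DESeq2 (Acta2, Actc1, Myl4, Myl7 and Myl9), and 1 (Myl4) with no filter on low values and with upper-quartile rescaling, and leaving out one library gave 0 to 4. It was 0 without WT EB8 replicate 2, without Taf4a-/- EB8 replicate 1 and without Taf4a-/- replicate 1 at all stages, and 1 without WT EB8 replicate 1, without either WT EB5 library and without WT replicate 2 at all stages. Myl4 passed in all 10 settings that gave it a value (2.85 to 4.05; a mean of at least 50 left it untested), Acta2 missed in 4 of 11 (-2.97 to -2.23) and Actc1 in 3 (-3.64 to -2.74); the cause was not tested. DESeq2 called 1 member at ES (Acta2), 2 at EB4 (Acta2 and Tpm2), 1 at EB5 (Myl7), and 1 each from ES to EB4 in WT (Myl4) and from EB5 to EB8 in WT (Tpm2) and Taf4a-/- (Cnn1), where the limma counts were 0. Tpm2 was also the 1 call from EB5 to EB8 in WT with upper-quartile and quantile scaling. The replicate block, under which Myl9 passed at EB8 as well (-2.25, limma adjusted p = 0.0184), gave 1 call at EB4 (Tpm2) and 1 from EB5 to EB8 in WT (Tpm2), and a replicate block within genotype gave 1 call from EB5 to EB8 in WT (Tpm2) and 1 in Taf4a-/- (Cnn1). Replicate numbers were not taken as pairs across genotypes: differences between replicates correlated from -0.209 to 0.335 between WT and Taf4a-/- of one stage, 0.523 to 0.605 among the WT EB stages, -0.179 to -0.048 between WT ES and the WT EB stages, and 0.233 to 0.422 within Taf4a-/-. Leaving out one library gave 0 to 1 calls at EB4, 0 to 1 from ES to EB4 in WT, 0 to 1 from EB5 to EB8 in WT, and 0 in each other comparison; the 1 call at EB4 and that from EB5 to EB8 in WT came without WT ES replicate 1 or 2. Signs turned only when a library was left out, with ranges of -2.11 to 0.14 (Cnn1), -0.64 to 1.59 (Myl7) and -2.93 to 0.28 (Myl9) at ES, and -0.47 to 0.96 (Cnn1, -0.07 without Taf4a-/- replicate 2) and -0.96 to 0.15 (Tagln) at EB5. With DESeq2, 4626 genes passed at EB8, with edgeR 3546 and with limma 3697. Read depth limits Tnnt2, Tnnc1 and the WT EB8 values of Myl4.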
